A study of Mus musculus with 6 samples.

Results

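Desmosomes are the junctions that rivet the keratin filaments of neighbouring epidermal cells together. Their cadherins, the desmogleins and desmocollins, meet across the intercellular space, and plakophilins and the plakin desmoplakin tie the cadherin tails to keratin. In the outermost living layers the junctions become corneodesmosomes through the addition of corneodesmosin, and kallikrein proteases and their inhibitors set how long corneodesmosomes hold the dead cells of the surface. The genes described here are 10 of the 21370 named genes on the array: the desmogleins Dsg1a, Dsg1b, Dsg2 and Dsg3, the desmocollins Dsc1, Dsc2 and Dsc3, corneodesmosin (Cdsn), plakophilin 1 (Pkp1) and desmoplakin (Dsp). They were taken as a fixed list, and 14 of the 55681 array features tested report them. Where a gene had more than 1 probe, the brightest represented it, and all 14 probes were well above background in both dyes on all 6 arrays.

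Epidermis of E16 mouse embryos (strain label 129SvEx:C57BL/6) was compared in 2 colours, one dye for the knockout and the other for RNA from wild-type littermates. The knockouts lacked Sox4 (Sox4 cKO), Sox11 (Sox11 cKO) or both (dcKO, Krt14-Cre with Sox4 fl/fl and Sox11 fl/fl), with 2 arrays per genotype and the dyes swapped between replicates 1 and 2. Krt14-Cre acts in basal keratinocytes and their progeny, so deletion is confined to the epithelium, and the epidermis was peeled from dorsal skin after dispase. The Krt14-Cre mice were FVB/N and the floxed stock was also Sox12-/-; the Sox12 genotype and the sex of each embryo are not given in the sources used here. Every value below is a log2 ratio of knockout over wild type, or, where so named, a log2 intensity of one dye channel, which compares samples for 1 probe and not genes with each other. All 6 arrays lay on 1 slide, none had a saturated spot, and the share of spots well above background ran from 38.9% to 43.6% over the 12 channels. In such bulk epidermis, fewer cells of a type and less RNA per cell cannot be told apart.

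The targeted genes were read before the junction genes. Of the 2 Sox4 probes, the dimmer fell in Sox4 cKO (-1.66 and -2.26 on the 2 arrays, adjusted p = 0.0284) and in dcKO (-1.55 and -1.61, adjusted p = 0.00223), whereas the brighter gave -0.42 in Sox4 cKO and -0.82 in dcKO and did not pass. The brighter Sox11 probe was well above background in both dyes on only 1 array. It gave 0.05 on the arrays labelled Sox11 cKO and -0.72 in dcKO (adjusted p = 0.979 and 0.196), and the other Sox11 probe gave -0.09 and -0.28. The Sox12 probe, in no case well above background in both dyes, gave values between -0.09 and 0.06. Where these probes lie relative to the deleted segments is not given in the sources used here, so the Sox11 values do not check the label, and the arrays are called by their label throughout. The study also measured both genes by RT-qPCR in isolated epidermis, which is not analysed here. The paper states that this checked their loss in the respective knockouts, and that the checked RNA was used for the arrays. Of the 10 keratinocyte markers, all were well above background in every sample.

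None of the 10 genes passed an adjusted p of 0.05 in any knockout (limma, Benjamini-Hochberg over all features). Of all features 0.00539% passed for Sox4 cKO, 0% for Sox11 cKO and 0.833% for dcKO. With the study's added requirement of a log2 change over 1.5 these shares were 0.00539%, 0% and 0.207%. At an unadjusted p of 0.05, the members numbered 0 of 10 in Sox4 cKO, 6 of 10 in Sox11 cKO and 6 of 10 in dcKO, against 6.18%, 7.05% and 9.89% of all features. The 10 genes had a median of 0.08 for Sox4 cKO, 0.31 for Sox11 cKO and 0.14 for dcKO, beside a median of 0 over all features in each. In dcKO, 5 genes were higher on both arrays (Dsg1a, Dsg1b, Dsc1, Cdsn and Pkp1) and 2 lower on both (Dsg2 and Dsc2), where 24.6% and 25.2% of all features did so. On the arrays labelled Sox11 cKO the counts were 6 higher and 1 lower (22.5% and 22.8% of all features), and in Sox4 cKO 3 higher and 1 lower (23% and 22.9%).

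**Figure D1:**
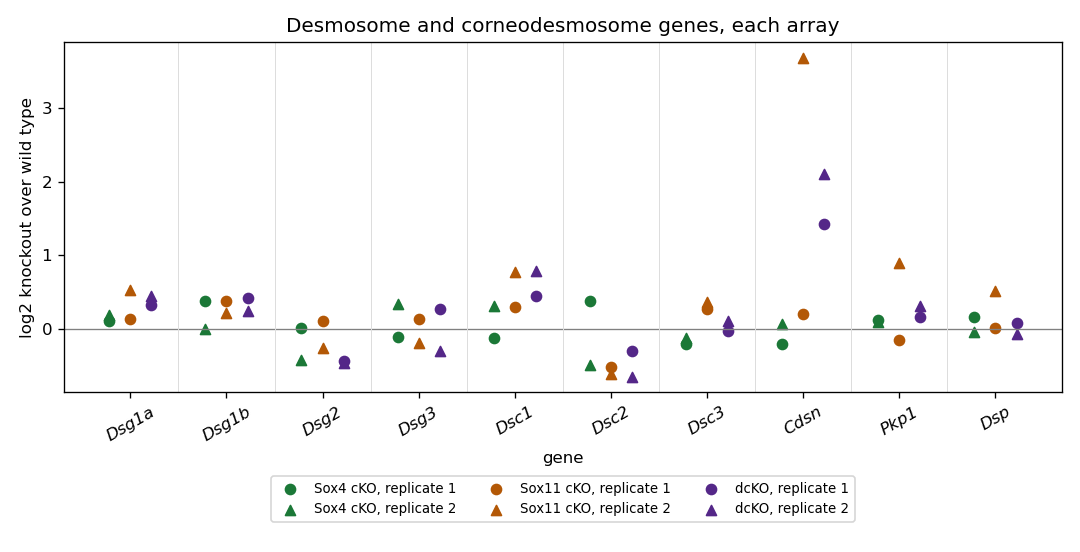
Log2 knockout over wild type (vertical axis) of the 10 junction genes (horizontal axis) on each of the 6 arrays; colours mark the genotype, circles replicate 1 and triangles replicate 2, and the grey line marks 0. Cdsn lies at 1.43 and 2.11 in dcKO and at 0.20 and 3.68 on the arrays labelled Sox11 cKO, while the other 9 genes stay between -0.65 and 0.90.

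Cdsn encodes corneodesmosin, the glycoprotein that granular keratinocytes secrete onto desmosomes as they cornify, and it gave the largest differences of the 10 genes. The log2 ratio was -0.21 and 0.06 in Sox4 cKO, 0.20 and 3.68 on the arrays labelled Sox11 cKO, and 1.43 and 2.11 in dcKO. Only the dcKO arrays were both far above 0. The fitted change was 1.77 in dcKO (SE 0.44, 3.42-fold, 95% confidence interval 0.78 to 2.77, adjusted p = 0.168) and 1.94 on the arrays labelled Sox11 cKO (0.94 to 2.94, adjusted p = 0.687), so neither passed. The value of -0.07 in Sox4 cKO had an interval of -1.07 to 0.92.

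The channel levels show where the Cdsn ratios came from. The wild-type log2 intensity was 12.90 and 11.68 on the Sox4 cKO arrays, 9.27 and 5.51 on those labelled Sox11 cKO, and 12.17 and 10.99 on the dcKO arrays. The knockout intensity was 12.69 and 11.74, then 9.47 and 9.19, then 13.61 and 13.11. The ratio of 3.68 thus stood on the lowest wild-type level of all 6, with a knockout level close to that of the other array of this genotype, whereas in dcKO both knockout samples were above all 6 wild-type samples. The fit shares its estimate of spread over all 6 arrays. Leaving out either array labelled Sox11 cKO gives the same dcKO fit, because the array that remains is matched exactly by its own coefficient. The value stayed at 1.77, and the SE was 0.14 in place of 0.44, as the 2 unlike arrays no longer entered the spread. From the 2 dcKO arrays alone, without a dye coefficient, the adjusted p was 0.000428. Among the alternatives that left out no single array, it ran from that value to 0.608 with scanner software log ratios. Cdsn also passed in dcKO with a background offset of 50 (adjusted p = 0.0215) and without background subtraction (0.0293). Those settings called 1378 and 1107 of all features in dcKO, in place of 464. Leaving out dcKO replicate 1 gave a fit of 1.18, although the array that remained read 2.11. Without replicate 2 the fit was 2.37, although the remaining array read 1.43. A knockout left with 1 array is shifted by a dye coefficient taken from the other genotypes. For Cdsn that coefficient came mainly from the arrays labelled Sox11 cKO, at 0.20 and 3.68. On the arrays labelled Sox11 cKO, the fit was 3.44 without replicate 1 and 0.44 without replicate 2. The dye coefficient and the spread of these fits come from the Sox4 cKO and dcKO arrays. With both arrays labelled Sox11 cKO kept, no alternative brought Cdsn past the threshold for this genotype.

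**Figure D2:**
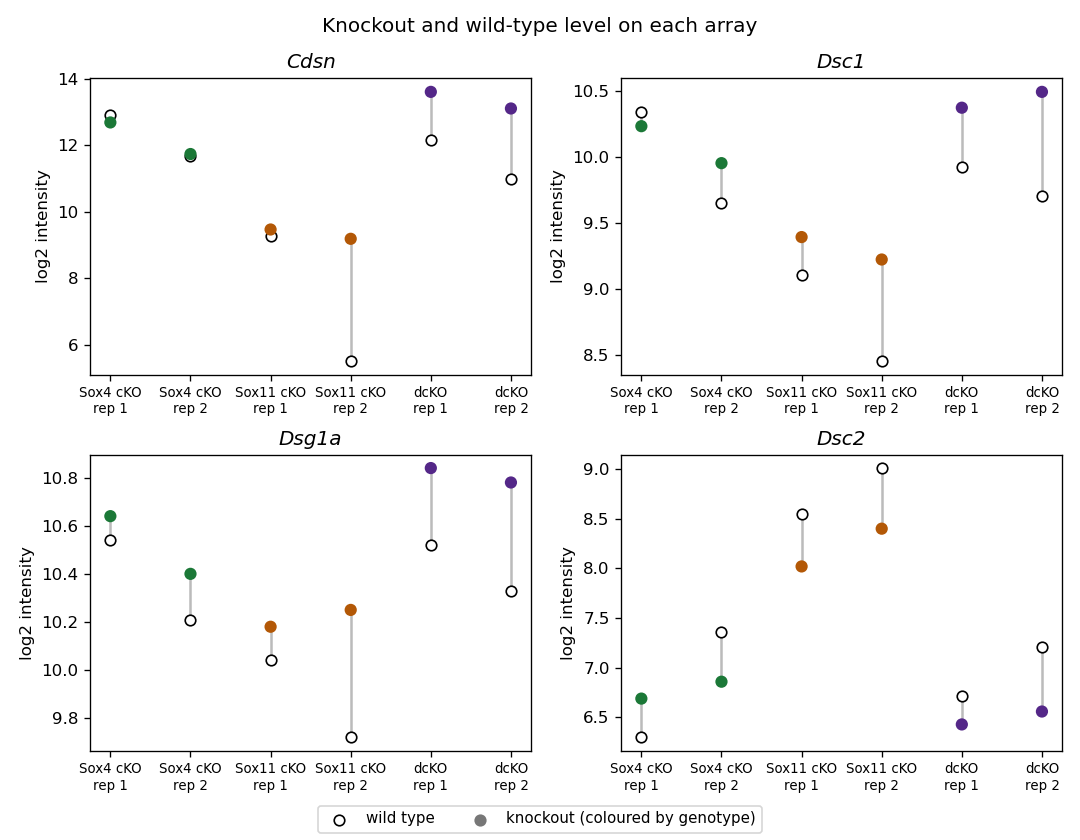
Log2 intensity (vertical axis, scaled for each gene) of Cdsn, Dsc1, Dsg1a and Dsc2 in the wild-type sample (open circles) and the knockout sample (filled, coloured by genotype) of each array (horizontal axis), joined by a grey line. Wild-type Cdsn runs from 5.51 to 12.90 and wild-type Dsc2 from 6.30 to 9.01, and both samples of the arrays labelled Sox11 cKO lie low for Cdsn, Dsc1 and Dsg1a and high for Dsc2.

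Cdsn has 2 annotated starts among the RefSeq promoters (GRCm38.p6, forward strand), shown here because SOX factors are the deleted genes and Cdsn carries the largest values. The 250 bases before each start, at chr17:35542851-35543100 and chr17:35551878-35552127, were searched on both strands for the SOX core letters ACAAT and ACAAAG, the AP-1 letters TGANTCA and the TATA box TATAAA; a match would stand in capitals.
Cdsn upstream start: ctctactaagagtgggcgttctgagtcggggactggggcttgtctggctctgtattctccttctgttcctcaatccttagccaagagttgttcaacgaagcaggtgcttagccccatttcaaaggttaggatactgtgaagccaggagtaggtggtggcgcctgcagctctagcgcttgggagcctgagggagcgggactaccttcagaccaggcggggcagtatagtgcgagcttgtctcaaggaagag
Cdsn downstream start: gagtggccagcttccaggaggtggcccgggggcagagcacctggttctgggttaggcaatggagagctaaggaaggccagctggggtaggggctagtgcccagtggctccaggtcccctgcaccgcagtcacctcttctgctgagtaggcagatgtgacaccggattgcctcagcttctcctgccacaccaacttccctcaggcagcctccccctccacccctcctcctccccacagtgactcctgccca
Neither window held any of the 4 motifs, nor did the 250 bases before the Dsp start (chr13:38151044-38151293). Of 32851 promoter windows of this length, 27.7% held ACAAT, 16.5% ACAAAG, 6.75% TGANTCA and 12.4% TATAAA. The absence says only that these letters are not in these windows, and which start the array probe reports was not determined.

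The desmosomal cadherins of the upper layers lay nearest to 0 in Sox4 cKO. Dsc1, the desmocollin of the suprabasal layers, was -0.12 and 0.31 in Sox4 cKO, 0.29 and 0.77 on the arrays labelled Sox11 cKO and 0.45 and 0.78 in dcKO. Its fitted values were 0.53 (95% confidence interval 0.24 to 0.82, adjusted p = 0.694) for Sox11 cKO and 0.62 (0.33 to 0.91, 1.53-fold, adjusted p = 0.0849) for dcKO. This was the lowest adjusted p of the 10 genes. It passed in dcKO with a background offset of 50 (adjusted p = 0.0023), without background subtraction (0.00857), without dim probes (0.04) and after a ComBat adjustment for dye (0.0066). These settings also called more of all features: 1378, 1107, 569 (of 24744 kept) and 3628, in place of 464. The fit after ComBat does not count the degree of freedom spent on dye. Without the replicate block the adjusted p of Dsc1 was 0.403.

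Dsg1a and Dsg1b are mouse copies of desmoglein 1, the desmoglein of the upper epidermis and a partner of Dsc1. Dsg1a was 0.10 and 0.19 in Sox4 cKO, 0.14 and 0.53 on the arrays labelled Sox11 cKO and 0.32 and 0.45 in dcKO. It was thus above 0 on all 6 arrays, with a dcKO fit of 0.39 (SE 0.13, 0.09 to 0.69, adjusted p = 0.36). Dsg1b was 0.38 and 0.00, 0.38 and 0.21, and 0.42 and 0.24 in the same order, with a dcKO fit of 0.33 (0.04 to 0.62, adjusted p = 0.443). After ComBat both passed in dcKO (adjusted p = 0.0321 and 0.0379), where 3628 of all features did in place of 464. Dsg1a also passed with an offset of 50 (0.0425), where 1378 features did. From the 2 dcKO arrays alone the adjusted p was 0.764 and 0.888. The closely related Dsg1c, a further copy, gave 0.19, 0.40 and 0.32 in the 3 knockouts, and probes of such close copies may also bind each other's RNA.

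Dsg2 and Dsc2, the desmosomal cadherins found in simple epithelia as well as in skin, lay below 0 in dcKO. Dsg2 was -0.44 and -0.46 in dcKO (fit -0.45, SE 0.14, 0.731-fold, adjusted p = 0.287), against 0.01 and -0.43 in Sox4 cKO and 0.11 and -0.26 on the arrays labelled Sox11 cKO. Its other probe gave -0.39 in dcKO (adjusted p = 0.438) and 0.21 in Sox4 cKO, where the brighter probe gave -0.21. After ComBat, where 3628 of all features passed in place of 464, Dsg2 passed in dcKO (adjusted p = 0.0305). Without the replicate block its adjusted p was 0.667.

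Dsc2 was -0.52 and -0.61 on the arrays labelled Sox11 cKO (fit -0.57, 95% confidence interval -0.93 to -0.21, adjusted p = 0.694) and -0.30 and -0.65 in dcKO (fit -0.47, -0.83 to -0.11, adjusted p = 0.353). The Sox4 cKO arrays disagreed, at 0.38 and -0.49. No alternative brought Dsc2 past the threshold in dcKO, the adjusted p ranging from 0.0622 to 0.847.

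Dsc3 and Dsg3 belong to the basal and lower spinous layers, and both lay near 0 in dcKO. Dsc3 was -0.03 and 0.10 there (fit 0.03, -0.25 to 0.32), -0.20 and -0.12 in Sox4 cKO, and 0.27 and 0.37 on the arrays labelled Sox11 cKO (fit 0.32, adjusted p = 0.704). Its other probe gave -0.04 in dcKO and 0.42 for Sox11 cKO. Dsg3, the desmoglein targeted in pemphigus vulgaris, changed sign between the replicates in all 3 genotypes, with fits of 0.11, -0.03 and -0.02, and its other probe gave 0.15, -0.25 and -0.04.

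On the cytoplasmic side, Pkp1 encodes the plakophilin of suprabasal desmosomes and Dsp the plakin that binds keratin. Pkp1 was 0.12 and 0.09 in Sox4 cKO, -0.15 and 0.90 on the arrays labelled Sox11 cKO and 0.16 and 0.31 in dcKO (fit 0.24, -0.19 to 0.66, adjusted p = 0.743). Dsp was 0.16 and -0.05, 0.01 and 0.52, and 0.08 and -0.07, with a dcKO fit of 0.00 (-0.35 to 0.36). For both genes the value of 0.90 or 0.52 came from the array labelled Sox11 cKO replicate 2. The other Dsp probe gave 0.10, 0.36 and 0.00.

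**Figure D3:**
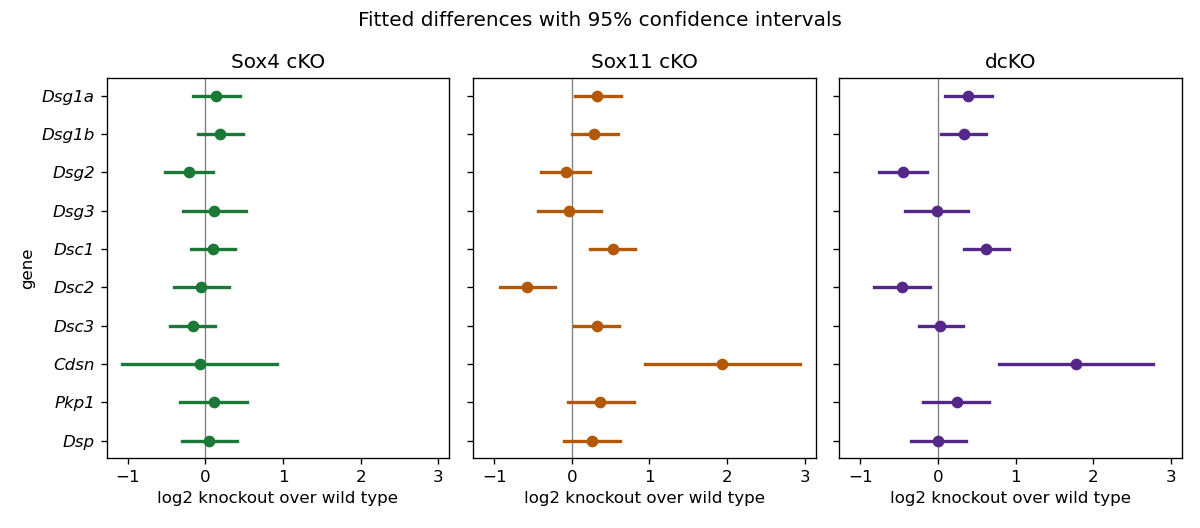
Fitted log2 knockout over wild type (horizontal axis) with 95% confidence intervals for the 10 genes (vertical axis), a panel for each genotype; points are the limma estimates from 2 arrays per genotype with the spread shared over all 6. The dcKO interval of Cdsn spans 0.78 to 2.77 and that of Dsp -0.35 to 0.36; intervals are not adjusted for the number of features.

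The differences between knockouts were tested in the same fit. None of the 10 genes passed for dcKO against Sox4 cKO (0.147% of all features did), dcKO against Sox11 cKO (0.163%), dcKO against the sum of the single knockouts (0.088%) or Sox11 cKO against Sox4 cKO (0.0018%). At an unadjusted p of 0.05 the counts were 2, 0, 0 and 4 of 10 in this order, against 6.12%, 7.21%, 6.38% and 5.28% of all features. The widest gaps were those of Cdsn, 1.85 for dcKO minus Sox4 cKO (95% confidence interval 0.44 to 3.26, adjusted p = 0.716) and 2.01 for Sox11 cKO minus Sox4 cKO (0.60 to 3.43, adjusted p = 0.929). Leaving out either array labelled Sox11 cKO gives the same fit of the Cdsn gap between dcKO and Sox4 cKO, without the 2 unlike arrays in its spread. For dcKO minus Sox11 cKO the 10 values lay between -0.38 (Dsg2) and 0.09, and the Cdsn interval of -1.58 to 1.25 leaves sizeable differences either way.

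The wild-type samples, 1 per array, differed among themselves in these genes. The labels do not say whether a wild-type RNA came from 1 embryo or a pool, or served on more than 1 array, so the 6 may not be independent. Wild-type Cdsn spanned 7.39 on the log2 scale over the 6 samples, 168-fold. Only 4 of 11154 named genes well above background in either dye on every array spanned more. Dsc2 spanned 2.71 (6.54-fold) and Dsc1 1.90 (3.72-fold), wider than in 98.4% and 96.4% of those genes, whose median was 0.50. Dsc3, with 0.28, was among the narrowest, and Dsg3 spanned 0.44. The lowest wild-type Cdsn sample, at 5.51, was flagged well above background but was dim. In the same sample the immune marker Cd52, at 5.47, was not so flagged. The Cdsn fit for Sox11 cKO, 1.94, was 1.62 with a background offset of 50 and 2.32 with scanner software log ratios. The span of 7.39 was not recomputed with other background settings.

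**Figure D4:**
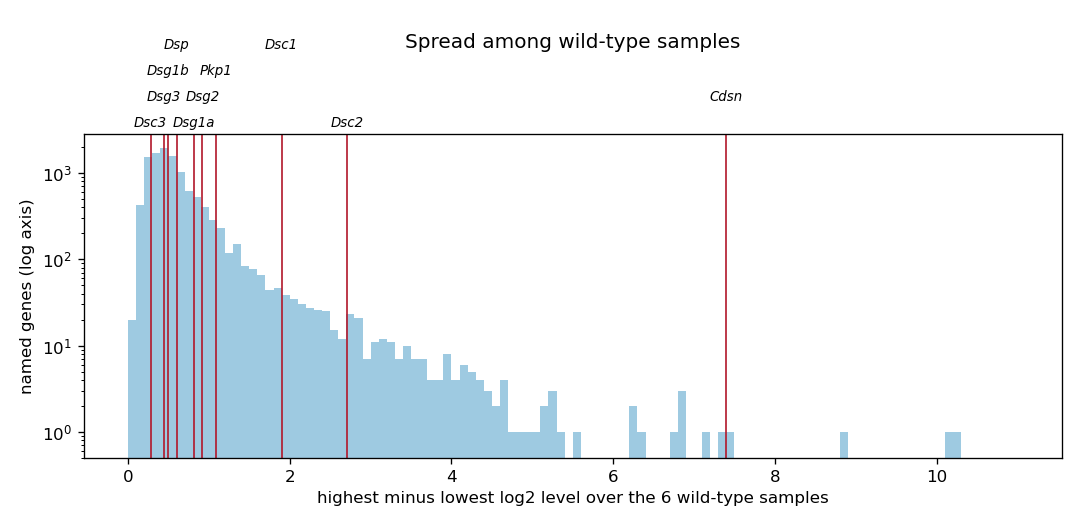
Number of named genes (vertical axis, log scale) by the range of their log2 intensity over the 6 wild-type samples (horizontal axis), with the 10 junction genes marked by red lines. The lines of the other 7 genes lie below 1.14, the 90th percentile of the 11154 genes; Dsc1, Dsc2 and Cdsn lie at 1.90, 2.71 and 7.39.

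This spread followed the arrays. In 8 of the 10 genes the 2 wild-type samples hybridised with the knockouts labelled Sox11 cKO did not overlap the other 4, which was so for 34.8% of the named genes. Their mean minus that of the other 4 was -4.55 for Cdsn (7.39 against 11.94), -1.13 for Dsc1 (8.78 against 9.90), -0.63 for Pkp1 and -0.52 for Dsg1a. It was 1.88 for Dsc2 (8.78 against 6.90) and 0.66 for Dsg2. The knockout samples of the same arrays lay apart in the same direction, by -3.46 for Cdsn, -0.96 for Dsc1 and 1.58 for Dsc2. Each dye was represented once in the 2 samples.

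The wild type of Sox11 cKO replicate 2 was the lowest of the 6 in 7 genes (24.6% of named genes) and the highest in 2 (33.8%), Dsg2 and Dsc2. Markers moved with it: the summed intensity of 7 granular layer markers, all well above background in every sample, was 68300 there against 114000 to 156000 in the other wild-type samples. The summed intensity of 6 red blood cell markers, 5 of them well above background, was 19900 there against 43900 to 63900. The summed intensity of 6 periderm markers was 15000 and 14400 in the 2 wild-type samples of the arrays labelled Sox11 cKO against 7780 to 9380 in the others. The part of these differences in the junction gene ratios was not tested, and litter and array set cannot be told apart.

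The same lists were also read between knockout and wild type. In dcKO all 7 granular markers were above 0 (median 0.61, replicate medians 0.63 and 0.48), none passing in the limma fit and 5 with an unadjusted p under 0.05. On the arrays labelled Sox11 cKO all 7 were above 0 as well (median 0.43, replicate medians 0.15 and 0.76), none passing and 5 with an unadjusted p under 0.05. In Sox4 cKO 5 of 7 were above 0 (median 0.07), and none passed or had an unadjusted p under 0.05. Of all features, 50% were above 0 in dcKO, 49.3% in Sox11 cKO and 50.1% in Sox4 cKO. The shares with an unadjusted p under 0.05 were 9.89%, 7.05% and 6.18% in the same order. Of the 6 periderm markers 3 passed in dcKO, where 0.833% of all features did. They were lower: Krt4 (-1.50, adjusted p = 0.00174), Krt17 (-1.37, 0.00507) and Krt19 (-1.40, 0.0177). An unadjusted p under 0.05 was found for 6 of the 6 in dcKO, 4 in Sox11 cKO and 3 in Sox4 cKO. The median of the 6 was -1.17 in dcKO, -1.15 on the arrays labelled Sox11 cKO (replicate medians -1.51 and -0.58, none passing) and 0.48 in Sox4 cKO, where 5 of 6 were above 0 and none passed. The 7 dermal fibroblast markers had medians of -3.42 and 0.98 on the Sox4 cKO arrays, 1.27 and -0.70 on those labelled Sox11 cKO and -1.79 and -1.70 in dcKO. None passed, and 5 of 7 had an unadjusted p under 0.05 in dcKO, 0 in the single knockouts. Their summed intensities were 6220 to 21900 in wild type and 6750 to 11600 in knockouts. In the dcKO knockout samples most of the sum came from Dcn, the 1 marker of the 7 fitted above 0 there (0.41 and 0.29). The part of these markers in the junction gene values was not tested.

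The remaining desmosome components were read as a list of 9: plakoglobin (Jup), Pkp2, Pkp3, Pkp4, periplakin (Ppl), envoplakin (Evpl), Dsg1c, Dsg4 and Perp, a membrane protein that desmosome assembly needs. None of the 9 passed in any knockout by limma. In Sox4 cKO, Sox11 cKO and dcKO, 0, 2 and 1 had an unadjusted p under 0.05, against 6.18%, 7.05% and 9.89% of all features. The medians of the 9 were 0.15, 0.03 and 0.10 in the same order. Jup, which links cadherin tails to desmoplakin, was 0.16, 0.16 and 0.13. Perp was 0.03, 0.34 and 0.10, and Pkp3 0.10, 0.00 and 0.05. In dcKO, Ppl was -0.02, Evpl -0.29 (adjusted p = 0.57) and Pkp4 0.26 (adjusted p = 0.624). Pkp2 (-0.13) and Dsg4 (0.14) were not well above background in both dyes on every array.

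Calls appeared among the proteases and inhibitors of corneodesmosome turnover. Of 13 genes, 3 rose in dcKO, where 0.833% of all features passed, none fell, and none passed in either single knockout. At an unadjusted p of 0.05 the dcKO count was 7 of 13, the Sox11 cKO count 5 and the Sox4 cKO count 3, against 9.89%, 7.05% and 6.18% of all features. The list's median was 0.54 in dcKO, 0.23 in Sox11 cKO and 0.00 in Sox4 cKO. Klk7, the chymotryptic kallikrein that cleaves corneodesmosin and desmocollin 1, rose by 2.34 and 2.58 (fit 2.46, SE 0.13, 5.52-fold, adjusted p = 8.6e-05). Prss8, a membrane-anchored channel-activating protease, rose by 0.99 (1.99-fold, adjusted p = 0.0112), and its other probe gave 0.53 (adjusted p = 0.18). Ctsl, the lysosomal cathepsin L, rose by 0.91 (1.88-fold, adjusted p = 0.0216). With either dcKO array left out Klk7 passed and the other 2 genes did not, and with the scanner software's own log ratios none of the 3 did.

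In Sox4 cKO Klk7 was 0.35 and 0.47, with Cdsn at -0.21 and 0.06, and on the arrays labelled Sox11 cKO Klk7 was not well above background in either dye. Klk5, the tryptic kallikrein upstream of Klk7, was 0.08 and -0.10 in Sox4 cKO, 0.46 and 1.98 on the arrays labelled Sox11 cKO and 1.03 and 1.27 in dcKO (fit 1.15, adjusted p = 0.102), thus high on the arrays where Cdsn was high. The inhibitors Spink5 (0.54, adjusted p = 0.534) and Cst6 (0.85, adjusted p = 0.139) and the protease Klk8 (0.66, adjusted p = 0.0752) did not pass in dcKO.

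**Figure D5:**
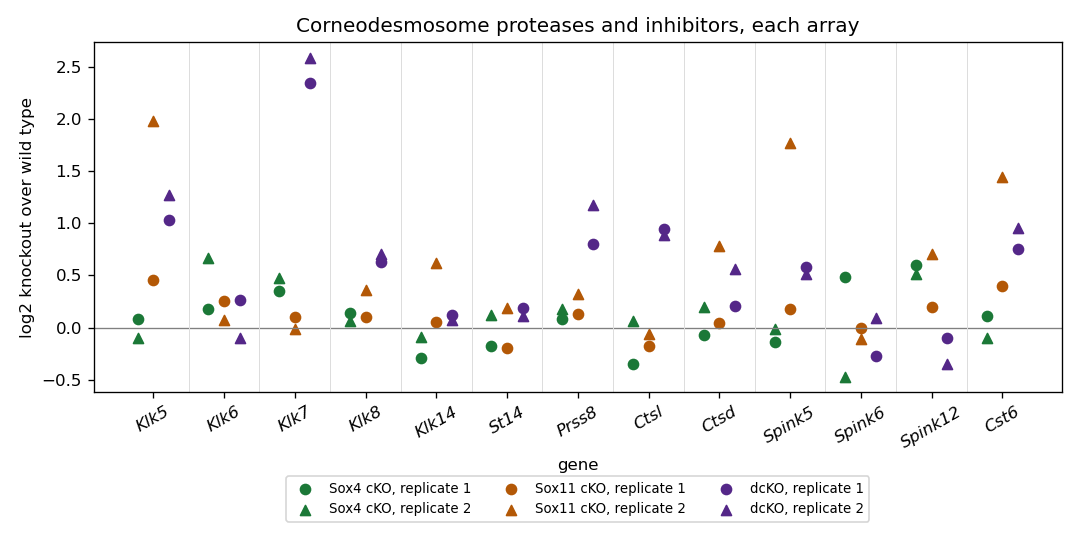
Log2 knockout over wild type (vertical axis) of 13 proteases and inhibitors of corneodesmosome turnover (horizontal axis) on each of the 6 arrays; colours mark the genotype, circles replicate 1 and triangles replicate 2. Klk7 lies at 2.34 and 2.58 in dcKO and below 0.5 on the other 4 arrays.

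Neighbouring structures gave no call. None of 9 adherens junction genes passed in any knockout by limma (unadjusted p under 0.05 for 1 in Sox4 cKO and 0 in the others). In dcKO their values lay between -0.19 and 0.07, with Ctnna1 at -0.19 and E-cadherin (Cdh1) at 0.04. In Sox4 cKO Nectin4, a cell adhesion molecule of the immunoglobulin family, was 0.51 (adjusted p = 0.805), and Cdh1 was 0.42 on the arrays labelled Sox11 cKO (adjusted p = 0.717). Of the 6 keratins that desmosomes anchor none passed either. An unadjusted p under 0.05 was found for 1, 1 and 3 of them in the 3 knockouts, dcKO last. For both lists the matching shares of all features, in that order, were 6.18%, 7.05% and 9.89%. The dcKO keratin count of 3, or 50%, was thus above its share, although no keratin passed. The suprabasal Krt1 was 0.64 and Krt10 0.63 in dcKO (adjusted p = 0.487 and 0.467), and the basal Krt5 and Krt14 were 0.06 and 0.26.

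The genes whose 6 ratios lay nearest to those of Cdsn were sought by the root mean square difference over the arrays. Compared were 11153 other named genes well above background in either dye on every array. The nearest was Il22ra2, a soluble receptor for interleukin 22 (0.46), followed by Nccrp1, Bbox1, Gm94, Stfa2 and involucrin (Ivl, 0.67), a cornified envelope precursor. Stfa2l1, Saa2, Il1f6 and Il1f9 completed the 10, at 0.70 to 0.73. In all 10 the array labelled Sox11 cKO replicate 2 had the highest ratio, between 2.06 and 3.22. Pearson r with Cdsn ran from 0.89 to 1.00 in the 10 over these same 6 arrays, each a hybridised pair shared by all the genes. The high ratio there and the high r follow largely from the choice of genes. They were picked for nearness to Cdsn, whose highest ratio, 3.68, was on that array. Ivl was 2.30 on that array and 1.15 and 1.36 in dcKO. None of the other 9 junction genes was among them.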

How the data were processed

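RNA of peeled epidermis was hybridised to Agilent 2-colour arrays. Per the labels and the file headers, the authors scanned and extracted them with Agilent Feature Extraction 11.0.1.1; the deposited scanner files hold spot intensity in both dyes and log10 ratios of Cy5 over Cy3. The authors' deposited values table holds log2 ratios: set against ratios recomputed from the scanner files (normexp background correction with an offset of 16, loess within arrays) it differed by at most 0.000318, runs as knockout over wild type, and holds no ComBat step, which the methods name.

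The table's 55681 non-control rows (138 control rows left out) were fitted with limma 3.58.1 in R 4.3.3: a coefficient per knockout and 1 for dye orientation, eBayes, Benjamini-Hochberg over all rows. Dye orientation and replicate number coincide, and same-numbered arrays deviated together (r = 0.26, 0.31 and 0.33), so the dye coefficient is the replicate block. The labels call the arrays of a genotype biological replicates; 2 per genotype and 2 residual degrees of freedom (6.65 prior) limit the precision. Channel levels were taken after quantile normalization of the mean intensities (Aquantile). Scripts were tested on simulated data.

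Probes were named through the accession of the scanner files in a RefSeq table (GRCm38.p6): 28341 had a symbol. Named were all members with all probes, the 9 partners, list genes that passed or, where fewer than 2 passed, those farthest from 0, the targeted genes and the 10 genes nearest to Cdsn; Klk5, Klk8, Spink5, Cst6, Jup, Perp and other genes given without a call were added for their known role. The members and lists were chosen with earlier results of these data known. Alternatives were other background corrections, scanner software log ratios, median centring, ComBat, a filter on dim probes, no block, own arrays alone, each array left out and other probes; scanner software log ratios without dim probes were added after seeing the data.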

Additional observations from a re-analysis of the deposited data

Results flagged for a closer look

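Klk7 differed between knockouts by the test of the difference: 2.05 for dcKO minus Sox4 cKO (adjusted p = 0.0037), 2.42 for dcKO minus Sox11 cKO (0.00143) and 2.01 for dcKO minus the sum of both single knockouts (0.0205). The latter 2 rest on arrays labelled Sox11 cKO where Klk7 was not well above background in either dye. The periderm keratin Krt4 differed by -2.48 for dcKO minus Sox4 cKO (adjusted p = 0.00164) and by -2.46 for Sox11 cKO minus Sox4 cKO (0.0353), with 1.19 and 0.78 on the Sox4 cKO arrays and between -1.72 and -1.27 on the other 4. Krt19 differed by -2.09 for dcKO minus Sox4 cKO (adjusted p = 0.0431). None of the 10 junction genes differed between knockouts in this test. None of their wild-type levels had a sample apart from the others by Dixon's test at 6 samples. That test looks for 1 outlying sample and can miss 2 that lie apart together. In 8 of the 10 genes the 2 wild-type samples of the arrays labelled Sox11 cKO lay apart from the other 4. The same was so for 34.8% of the named genes.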

How the results depend on the processing

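Members past the threshold in dcKO numbered 0, and 3 with a background offset of 50, 2 without background subtraction, 1 without dim probes, 4 after ComBat, 1 from its own arrays and 0 to 1 when an array was left out; in Sox11 cKO, dcKO minus Sox4 cKO and Sox11 cKO minus Sox4 cKO leaving out an array gave 0 to 1, always Cdsn. The median of the members in Sox4 cKO was 0.05 with scanner software log ratios, with and without dim probes, 0.23 with median centring and -0.16 to 0.24 when an array was left out; in dcKO leaving out an array gave 0.06 to 0.29. A knockout left with 1 array was assumed to vary like the others, and its fit carries a dye coefficient taken from them. Such a fit can lie outside the ratios of both arrays, as for Cdsn in Sox4 cKO, which read -0.21 and 0.06. Leaving out an array turned signs in Sox4 cKO, with ranges of -0.98 to 0.83 for Cdsn, -0.21 to 0.42 for Pkp1, -0.14 to 0.25 for Dsp, -0.34 to 0.57 for Dsg3 and -0.38 to 0.27 for Dsc2, in Sox11 cKO for Dsg3 (without replicate 2, 0.10), Pkp1 (-0.12 to 0.86) and Dsp (-0.08 to 0.60), and in dcKO for Dsg3 (without replicate 2, 0.30). Signs also turned for Cdsn in Sox4 cKO (0.15) and Dsc3 in dcKO (-0.03) with median centring, Dsg3 in dcKO (0.07) with scanner software log ratios, and with the other probe for Dsg2 in Sox4 cKO (0.21) and Dsc3 in dcKO (-0.04). The causes were not tested, beyond this dye coefficient and the fewer samples or features that an alternative uses.

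Without the replicate block 0 members passed in each comparison, as with it, and 270 features passed in dcKO in place of 464. The settings in which members passed also called more features in dcKO. These numbered 1378 with an offset of 50, 1107 without background subtraction and 569 without dim probes. After ComBat there were 3628, and 523 from the own arrays of dcKO. Over all alternatives the calls among all features ran from 0 to 3628 in dcKO (464 as reported), 0 to 51 in Sox4 cKO (3), 0 to 40 in Sox11 cKO (0), 0 to 371 for dcKO minus Sox4 cKO (82), 0 to 690 for dcKO minus Sox11 cKO (91), 0 to 116 for dcKO minus the sum of single knockouts (49) and 0 to 18 for Sox11 cKO minus Sox4 cKO (1). With scanner software log ratios no feature passed, with or without dim probes; 5154 features have a log ratio of 0 on every array there.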
